A study of Mus musculus with 2 samples.

Results

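The cadherin and protocadherin genes described here are the 33 protein-coding genes of the GENCODE annotation of mm10 whose symbols are Cdh or Pcdh followed by digits only, Cdh5 left out, of 21938 protein-coding genes in all. They were chosen by name and not by any measured value. They comprise 5 type I classical cadherins, 12 type II classical cadherins, 5 other cadherins, 3 delta-1 protocadherins, 5 delta-2 protocadherins and 3 other protocadherins. Accessible chromatin was mapped by DNase-seq, which sequences the DNA that the nuclease DNase I releases from open chromatin, in cortex tissue of the left hemisphere from 2 B6CASTF1/J mice, both female, 14 days old and hybrids of the strains C57BL/6J and CAST/EiJ. The labels give the libraries separate biological replicate and animal numbers but the same donor record, and they were taken as separate animals by those numbers. The labels name no treatment, and the animals form 1 group with 1 library each, so no contrast and no p-value exist, and values after ± are the SD over n = 2.

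Cadherins are calcium-dependent adhesion molecules of the cell surface. Classical cadherins bind the same or a related cadherin on the neighbouring cell and are tied to the actin cytoskeleton by catenins, whereas protocadherins have a different cytoplasmic tail and bind no catenin complex of that kind. Delta protocadherins are encoded by separate genes and not by the clustered protocadherin arrays, and in the cortex both families are known for sorting neurons, guiding axons and specifying synapses.

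Each peak in the deposited lists is called a DHS (DNase I hypersensitive site), and its signal is the authors' value for that peak, with an unstated scale factor. Replicate 1 held 90059 DHSs and replicate 2 held 175597, and read depth is unknown. Some listed peaks lie inside or overlap others of the same list, so these numbers count listed peaks and not separate places. Markers of the labelled tissue were accessible, with a promoter DHS in both libraries for 5 of 5 neuronal and 6 of 6 glutamatergic marker genes, against 0 of 4 endothelial and 0 of 4 epithelial ones. Of the remaining lists, 3 of 4 astrocyte, 3 of 5 oligodendrocyte, 1 of 4 microglial, 1 of 4 meningeal, 1 of 4 choroid plexus, 2 of 4 interneuron, 1 of 4 muscle and 0 of 3 liver markers were accessible. In a bulk tissue, few cells with an open site and a weakly open site in many cells cannot be told apart.

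Most of the genes had an accessible promoter, but a weak one. A DHS within 1 kb of an annotated start site was present in both libraries at 27 of the 33 genes (81.8%), against 62.7% of all protein-coding genes. The counts per library were 28 in replicate 1, against 63.6% of all, and 27 in replicate 2, against 67.8%. Among those accessible promoters the median signal, as the mean of both libraries, was 1.05 for the 27 genes and 2.33 for the 13757 protein-coding genes. Among genes over 100 kb, whose accessible promoters were lower in general, the medians were 1.02 and 1.58. The difference held in each library, with medians of 1.09 and 2.52 in replicate 1 and of 1.00 and 2.13 in replicate 2, the cadherin and protocadherin genes first. The promoters of 6 genes, Pcdh10, Pcdh9, Pcdh17, Pcdh1, Pcdh8 and Cdh24, lay above the median of all genes, and 5 of the 6 encode protocadherins. Pcdh1 owes its place to a site about as far from its own start as from another gene's, and the 2 cannot be told apart there. Pcdh1 averaged 1.02 within 500 bp of its starts or with only peaks nearest to them. Counted that way, 5 genes and 4 protocadherins lay above the median.

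**Figure D1:**
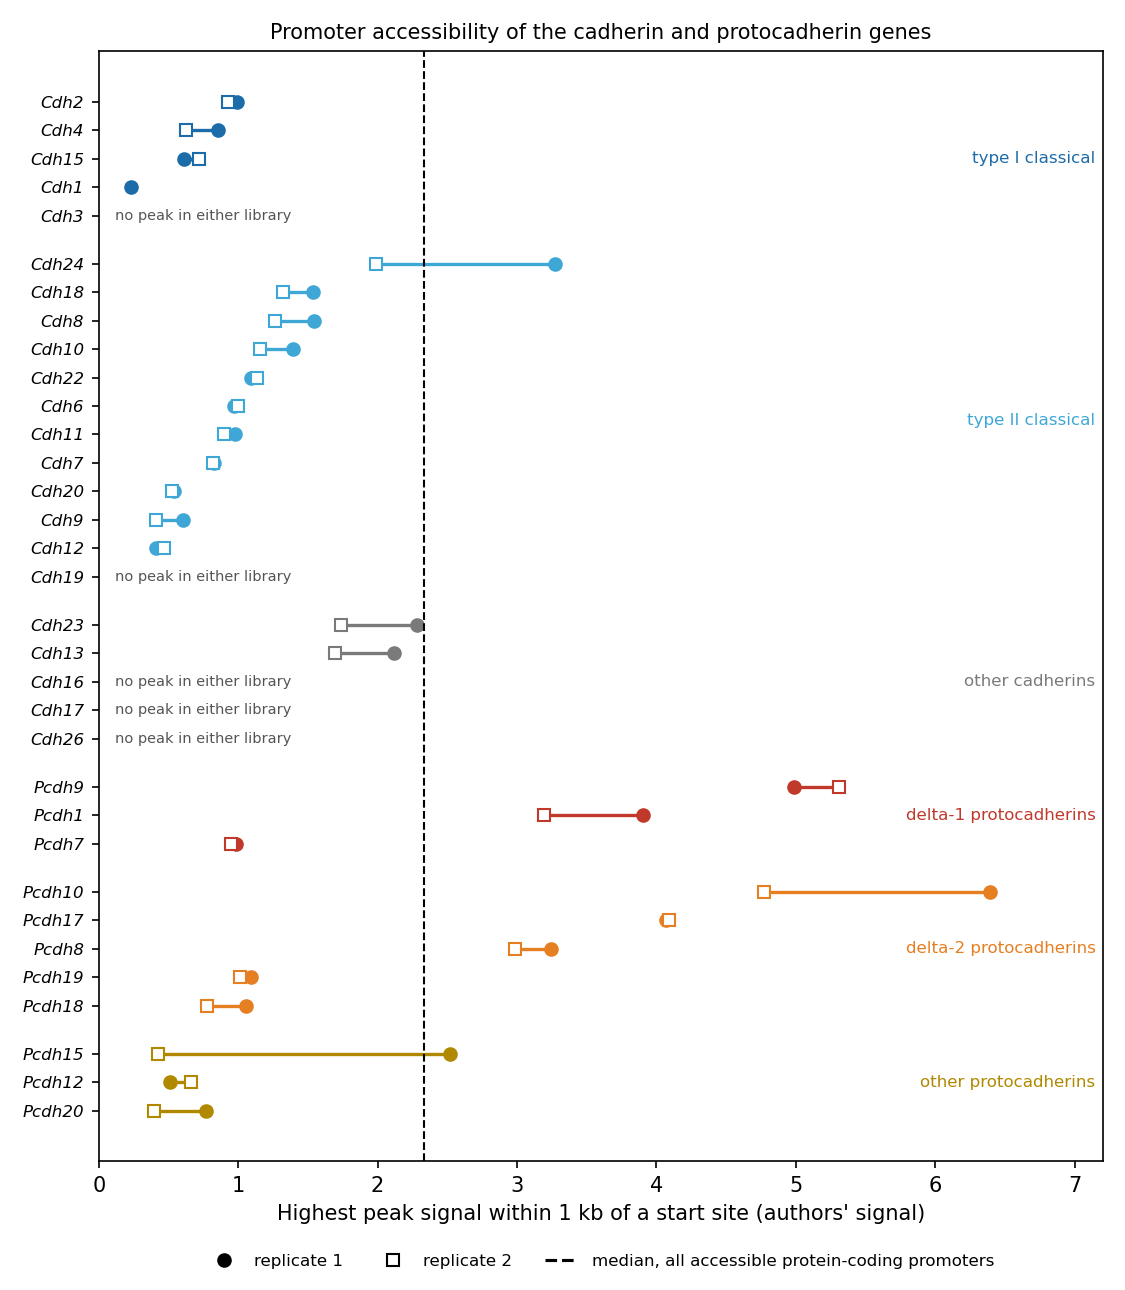
Highest peak signal within 1 kb of any start site (horizontal axis, the authors' signal) for each of the 33 genes, grouped by class, with filled circles for replicate 1 and open squares for replicate 2. The dashed line is the median of all accessible protein-coding promoters, 2.33; the values of both libraries of Pcdh1, Pcdh8, Pcdh9, Pcdh10 and Pcdh17 lie to its right, and 5 genes have no peak in either library.

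The delta-2 protocadherins were accessible in 5 of 5 cases, against 62.7% of all protein-coding genes. They held the promoter with the highest mean signal of all 33 genes. Its values overlapped those of the delta-1 gene Pcdh9, which was higher in replicate 2. Pcdh10, which encodes OL-protocadherin, a regulator of axon growth, reached 6.40 in replicate 1 and 4.77 in replicate 2, a mean of 5.58 ± 1.15 that was at or above 89.1% of all accessible promoters. Pcdh17, known for synapse development in corticobasal circuits, had signals of 4.07 and 4.09. Pcdh8, which encodes the activity-regulated protein arcadlin, had 3.24 and 2.99. The other members of the class were lower: Pcdh19, the X-linked gene mutated in a female-limited epilepsy, had 1.09 and 1.01, and Pcdh18 had 1.06 and 0.777. The lowest value of the first 3 genes, 2.99, was thus above the highest value of the last 2, 1.09.

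Among the delta-1 protocadherins, Pcdh9 had signals of 4.99 in replicate 1 and 5.31 in replicate 2, at or above 85.9% of accessible promoters. Pcdh1 had 3.91 and 3.20, from a DHS 838 bp in replicate 1 and 828 bp in replicate 2 from its own start. The nearest start, of 2010320O07Rik, was 813 and 823 bp away, so the site cannot be assigned to 1 of the genes. The sites nearest to Pcdh1 starts held at most 1.00 and 1.03. Pcdh7 was far lower in height, with 0.986 and 0.951, but broad. It had 7 shared DHSs near its start sites, some of them nearer to a start of 4932441J04Rik. The peak behind its 0.951 in replicate 2 lay 479 bp from that gene's start and 526 bp from the nearest Pcdh7 start. Its promoter windows held 2658 bp in replicate 1 and 4514 bp in replicate 2 of segments listed by the authors. These segments have a false discovery rate of at most 0.05. Such breadth was not particular to Pcdh7. Pcdh9 had 2954 bp in replicate 1 and 2175 bp in replicate 2 in these segments, and Pcdh17 had 2845 and 2807 bp. A shared DHS is a merged region that holds a peak of each library.

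The promoter DHSs of Pcdh10, Pcdh9, Pcdh17 and Pcdh8 are shown because they were the 4 highest whose nearest start site was the gene's own. Each was 220 to 300 bp long with its midpoint 9 to 172 bp from a start site. Bases come from the RefSeq genome GRCm38.p6 (mm10) and are written on the strand of the gene, and capitals mark bases inside footprints, short stretches called as protected from DNase I, of both libraries at once. The Pcdh10 site is chr3:45378221-45378440 on the plus strand, the Pcdh9 site chr14:93890701-93891000 on the minus strand, the Pcdh17 site chr14:84443341-84443620 on the plus strand and the Pcdh8 site chr14:79771201-79771440 on the minus strand. All 4 span or lie just upstream of the first exon.
Pcdh10: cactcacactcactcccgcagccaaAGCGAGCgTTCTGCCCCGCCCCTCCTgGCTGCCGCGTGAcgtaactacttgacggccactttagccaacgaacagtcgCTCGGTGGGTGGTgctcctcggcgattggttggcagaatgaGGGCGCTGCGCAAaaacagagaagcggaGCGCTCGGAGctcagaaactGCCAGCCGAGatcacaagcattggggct
Pcdh9: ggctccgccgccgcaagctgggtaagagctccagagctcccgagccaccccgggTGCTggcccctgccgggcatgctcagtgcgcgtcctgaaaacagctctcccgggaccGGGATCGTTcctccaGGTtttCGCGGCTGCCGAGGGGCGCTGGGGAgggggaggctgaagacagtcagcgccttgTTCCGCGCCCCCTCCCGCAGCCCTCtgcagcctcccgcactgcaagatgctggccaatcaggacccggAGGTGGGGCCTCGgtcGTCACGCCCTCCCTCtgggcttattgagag
Pcdh17: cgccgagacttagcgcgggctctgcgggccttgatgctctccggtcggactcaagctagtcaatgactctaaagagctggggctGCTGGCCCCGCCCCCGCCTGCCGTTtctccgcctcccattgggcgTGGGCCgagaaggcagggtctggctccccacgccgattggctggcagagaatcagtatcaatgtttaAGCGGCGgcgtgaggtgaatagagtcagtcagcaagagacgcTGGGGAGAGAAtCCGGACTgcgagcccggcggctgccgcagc
Pcdh8: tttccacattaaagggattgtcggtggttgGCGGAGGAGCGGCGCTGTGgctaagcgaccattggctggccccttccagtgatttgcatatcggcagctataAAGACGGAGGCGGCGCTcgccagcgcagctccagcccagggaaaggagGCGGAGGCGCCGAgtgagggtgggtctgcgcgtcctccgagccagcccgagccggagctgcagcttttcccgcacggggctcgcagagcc

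Pairs of overlapping footprints, 1 from each library, numbered 7 in the Pcdh10 site and 7 in the Pcdh9 site. The Pcdh17 site held 5 such pairs and the Pcdh8 site 3. A footprint can belong to more than 1 pair. Bases common to both libraries made up 37.7% of the Pcdh10 site, 31.3% of the Pcdh9 site and 20.4% of the Pcdh8 site. The letters GGGCGG, the core bound by SP and KLF factors, occurred on either strand within a footprint in the Pcdh10 site (bases 41 to 46) and the Pcdh17 site (bases 92 to 97), counted from 1 at the 5′ end. The POU octamer ATGCAAAT occurred in the Pcdh8 site at bases 82 to 89, outside any footprint of both libraries. The letters CCAAT, the box bound by NF-Y, occurred on either strand in all 4 sites, at bases 128 to 132 and 212 to 216 in Pcdh10, 240 to 244 in Pcdh9, 122 to 126 and 165 to 169 in Pcdh17, and 61 to 65 in Pcdh8. Every one of these CCAAT matches lay outside the capitals.

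The same letters were counted in the central 200 bp of the highest promoter DHS of every gene. CCAAT, a search added after these sequences had been read, occurred in 15 of 27 (55.6%) of the cadherin and protocadherin sites and in 34.2% of the 13689 sites of all protein-coding genes. Without the 4 sites shown, which prompted the search, it occurred in 11 of 23 (47.8%). The 15 comprised 9 of the 11 protocadherins, all but Pcdh7 and Pcdh15, and 6 of the 16 cadherins (Cdh8, Cdh11, Cdh13, Cdh15, Cdh18 and Cdh23). GGGCGG went the other way, in 7 of 27 (25.9%) sites against 56.6% of all. The cyclic AMP response element TGACGTCA was in 0 of the 27, against 3.64% of all, and the E-box CAGCTG was in 5 (18.5%), against 11.9%. Over the 67 shared promoter DHSs of the genes whose midpoint lay within 1 kb of a start, GGGCGG occurred in 23.9%, against 43.0% of the 25256 of all genes, and CCAAT in 29.9% against 27.0%, so the higher share of CCAAT was seen in the highest site of each gene and not over the 67. A further 6 sites that reached into a promoter window with a midpoint farther out, the Pcdh15 one among them, were counted with the distal sites here.

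**Figure D2:**
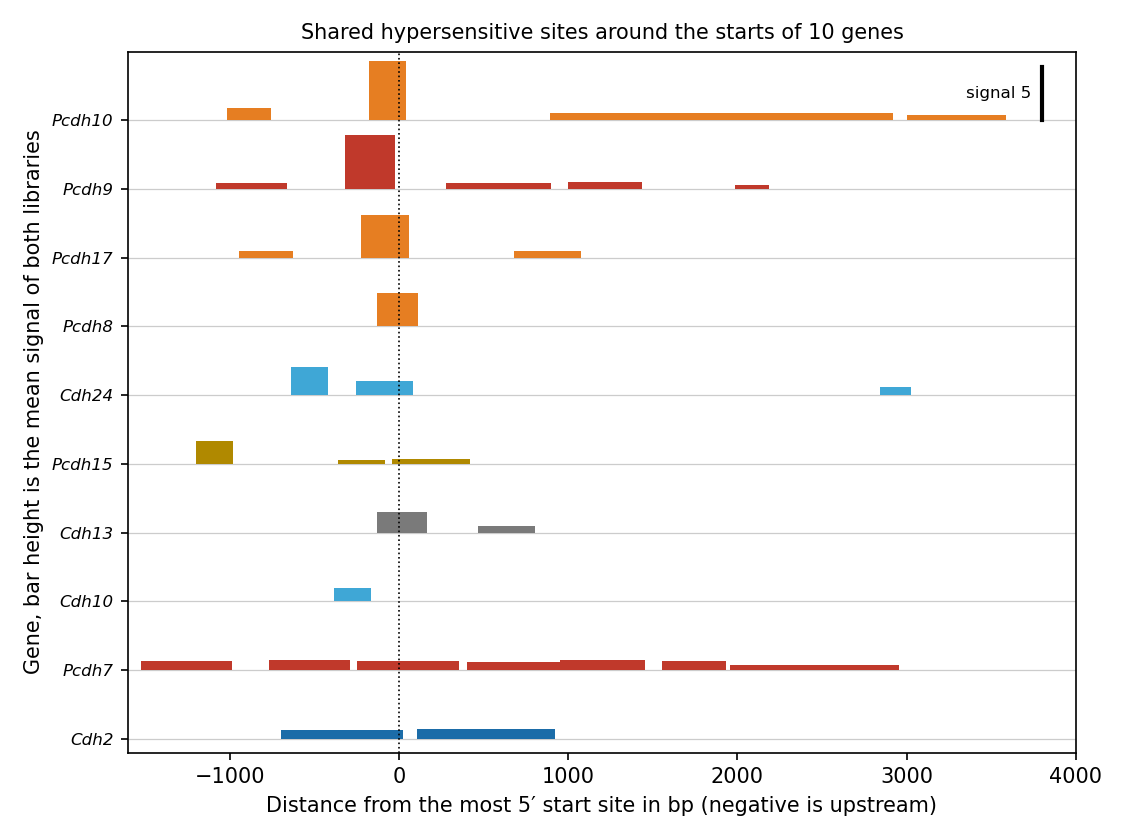
Shared DHSs of 10 genes that reached within 1 kb of a start site, drawn to scale around the most 5′ start (horizontal axis, distance in bp, negative upstream). Each bar is as wide as the DHS and as high as its mean signal over both libraries. Other shared DHSs in this range, such as the high intronic site of Cdh10 and further exonic sites of Pcdh17, are not drawn. Pcdh10, Pcdh9, Pcdh17 and Pcdh8 have 1 high, narrow site at the start, Pcdh7 has 7 low sites side by side, and the highest sites of Cdh24 and Pcdh15 stand upstream of the start.

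The layout around the start also differed between the genes. Downstream of its high site Pcdh10 held a shared DHS of 2033 bp in exon sequence, with 17 footprints in replicate 1 and 21 in replicate 2, at signals of only 0.763 and 0.672. Pcdh17 likewise had 3 low sites in exon sequence that reached into the 1 kb around a start, with signals of 0.428 to 0.925 over both libraries. Between them lay further shared exonic sites, the highest with 1.12 in replicate 1 and 1.10 in replicate 2. Cdh2 had 2 adjacent sites of 820 and 720 bp around its start. More than 1 promoter peak in both libraries was found at 19 of the 33 genes, against 36.4% of all protein-coding genes. Peaks nested in longer ones, as at Cdh2, were counted here too. Where the promoter was accessible, a median of 981 bp of the windows in replicate 1 and 1341 bp in replicate 2 lay in the authors' false discovery rate segments, against 826 and 1019 bp over all such genes. As a share of the windows the medians were 17.6% and 27.4%, against 17.2% and 21.2%, so replicate 1 hardly differed. Among genes over 100 kb they were 1140 and 1418 bp, against 1056 and 1341 bp, or 17.9% and 24.1% of the windows, against 14.9% and 18.8%. Both sets of accessible genes had a median of 5 start sites, and the windows had median lengths of 4154 and 4265 bp.

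The type II classical cadherins, expressed in overlapping patterns across brain regions, were accessible in 11 of 12 cases, against 62.7% of all protein-coding genes. Their median signal was 0.986. The highest was Cdh24, with 3.28 in replicate 1 and 1.99 in replicate 2. Cdh18 and Cdh8 followed, Cdh18 with 1.53 and 1.32 and Cdh8, which marks subsets of cortical neurons, with 1.54 and 1.26. These values and those of Cdh10, 1.39 and 1.15, overlap between neighbours, so their order is not set beyond the spread between the libraries. Cdh22 had 1.09 and 1.13, Cdh6 0.971 and 1.00, Cdh11 0.979 and 0.896, and Cdh7 0.825 and 0.816. The lowest were Cdh20 with 0.539 and 0.528, Cdh9, an organizer of hippocampal mossy fibre synapses, with 0.601 and 0.413, and Cdh12 with 0.408 and 0.468. The Cdh12 value came from a DHS nearest to the start of Gm49685 and the Cdh10 value from one nearest to C030047K22Rik, and signal of the neighbouring start cannot be told apart there. Cdh19, a cadherin of neural crest-derived glia, had no promoter peak in either library.

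The type I classical cadherins were accessible in 3 of 5 cases, close to the 62.7% of all protein-coding genes. Cdh2, which encodes N-cadherin, the main classical cadherin of neurons and of their synapses, had signals of 0.994 in replicate 1 and 0.926 in replicate 2. Its neighbour by class Cdh4 (R-cadherin) had 0.855 and 0.627, and Cdh15 (M-cadherin), known from muscle, had 0.609 and 0.717. All 3 thus lay in the lowest 18.5% of accessible promoters. Cdh1, which encodes the epithelial E-cadherin, had a peak of 58 bp in replicate 1 alone, with a signal of 0.231 and a lowest false discovery rate of 0.0180. Cdh3 (P-cadherin) had none.

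Of the other cadherins, Cdh23 and Cdh13 were accessible and Cdh16, Cdh17 and Cdh26 were not. Cdh13 encodes T-cadherin, which is held in the membrane by a lipid anchor and lacks a cytoplasmic tail, and had signals of 2.12 and 1.69 from a DHS 4 bp from its start. Cdh23 encodes 1 of the 2 tip-link proteins of inner ear hair cells and reached 2.28 and 1.74. Pcdh15, which encodes the other tip-link protein and is counted with the other protocadherins, had 2.52 and 0.423. Its companions in that class were low, with 0.509 and 0.662 for Pcdh12, known from endothelium, and 0.771 and 0.398 for Pcdh20.

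The 5 genes with no promoter peak in either library were Cdh3, Cdh16, Cdh17, Cdh19 and Cdh26, 15.2% of the 33, against 31.3% of all protein-coding genes. None had a segment within the false discovery rate limit at its promoter either. Cdh16 (kidney), Cdh17 (liver and intestine) and Cdh3 are known from epithelia, and the 4 epithelial markers Epcam, Krt8, Krt18 and Cldn4 also had no promoter peak. All 5 had a CpG content near the most 5′ start below the median of protein-coding genes, 0.553 of the expected number of CpG sites. Of the 19 genes at or above that median, 18 were accessible in both libraries, against 92.4% of all such genes, Cdh1 being the exception. Of the 14 below it, 9 were accessible, against 33% of all such genes. Across the 27 accessible promoters, CpG content and signal had a Spearman rho of 0.309, close to the 0.338 over all protein-coding genes; this describes genes that share the libraries and is not a test.

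Start sites within a gene were not equally accessible, and for 3 genes the highest shared DHS lay far from the most 5′ start. In Cdh18 no shared DHS lay at that start, and the site with signals of 1.53 and 1.32 lay in an intron, 487 kb downstream, 54 bp from an internal start. In Cdh23 the highest site lay in exon sequence at the far end of the gene, 391 kb from the most 5′ start, where only 0.963 and 0.528 were found. In Pcdh12 the shared DHS lay 6.46 kb downstream. Cdh12 had 3 weak shared sites, with signals of 0.194 to 0.378 over both libraries, around an internal start 660 to 662 kb into the gene besides those at its 5′ end. Pcdh10, Pcdh18, Pcdh8, Pcdh17, Pcdh20, Cdh24 and Cdh12 were accessible at every annotated start. So were Cdh6, Cdh15 and Cdh20, but each of these has only 1 annotated start. In Pcdh8 and Pcdh20 the 2 starts lay so close that 1 peak of replicate 1 reached the windows of both.

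The libraries had similar promoter values for these genes. Of the 27 accessible promoters 1, Pcdh15, differed by more than 2-fold, against 1.35% of all accessible promoters, and replicate 2 over replicate 1 had a median ratio of 0.916, against 0.884 over all. The Pcdh15 difference lay at the edge of the 1 kb window. A DHS whose midpoint lay 1091 bp upstream of a start had signals of 2.52 and 1.89, but the peak of replicate 2 ended just outside the window and was not counted there, which left a peak of 0.423 at a start in its place. Pcdh12 was counted as accessible from different places, and its shared DHS had 0.509 and 0.309.

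The Pcdh15 site, the highest promoter site of Cdh24 and the highest distal sites of Cdh10 and Cdh26 are shown because each held, inside footprints of both libraries, letters close to the known consensus of CTCF, the insulator protein that anchors chromatin loops. A distal DHS here is a shared DHS over 1 kb from any annotated start. The Cdh24 site is chr14:54641781-54642000 (minus strand), 527 bp upstream of its start, and the Pcdh15 site chr10:73098141-73098360 (plus strand). The Cdh10 site is chr15:18821461-18821660 (plus strand), in an intron 1232 bp from a start of the gene, with signals of 5.06 and 3.44, about as high as the highest promoters of the family. The Cdh26 site is chr2:178507481-178507700 (written on the plus strand), outside the gene and 46961 bp from its nearest start, with 2.73 and 1.82.
Cdh24: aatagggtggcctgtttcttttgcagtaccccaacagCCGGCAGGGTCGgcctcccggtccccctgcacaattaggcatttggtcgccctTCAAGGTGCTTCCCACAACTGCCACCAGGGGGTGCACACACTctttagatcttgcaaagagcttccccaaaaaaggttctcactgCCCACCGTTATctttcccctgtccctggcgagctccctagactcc
Pcdh15: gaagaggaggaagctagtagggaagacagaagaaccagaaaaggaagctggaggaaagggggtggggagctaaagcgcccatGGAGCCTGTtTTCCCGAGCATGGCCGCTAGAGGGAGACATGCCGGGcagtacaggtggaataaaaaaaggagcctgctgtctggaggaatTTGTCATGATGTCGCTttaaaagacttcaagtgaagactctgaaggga
Cdh10: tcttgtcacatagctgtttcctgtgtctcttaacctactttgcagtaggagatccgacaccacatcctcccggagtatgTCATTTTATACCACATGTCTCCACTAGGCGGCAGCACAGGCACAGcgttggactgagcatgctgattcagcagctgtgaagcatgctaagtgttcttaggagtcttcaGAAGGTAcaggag
Cdh26: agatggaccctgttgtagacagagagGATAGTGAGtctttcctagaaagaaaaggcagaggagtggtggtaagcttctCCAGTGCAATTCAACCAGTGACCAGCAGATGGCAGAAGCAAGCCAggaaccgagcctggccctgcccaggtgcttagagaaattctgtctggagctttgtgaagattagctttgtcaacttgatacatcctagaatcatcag

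In these sites a relaxed CTCF consensus, searched after the sequences had been read, matched at bases 112 to 122 of the Cdh24 site, 106 to 116 of the Pcdh15 site, 100 to 110 of the Cdh10 site and 100 to 110 of the Cdh26 site. They were not the only ones. It also matched inside a footprint of the Cdh16 site chr8:104602781-104603000, whose bases are not shown. In the Pcdh9 promoter site a match at bases 250 to 260 lay partly inside a footprint. In the central 200 bp of all 236 distal DHSs of the genes the same consensus occurred in 44 (18.6%), against 23.6% of all 52901 distal DHSs, so it was not more frequent over the family than elsewhere. At the highest promoter sites it occurred in 5 of 27 (18.5%), against 15.3%, but the 5 include the Cdh24 and Pcdh15 sites shown. The search was added after those had been read, so the higher share cannot be read apart from them. The stricter core CAGGGGGCG was in 0 of the 236 distal sites, against 1.43%. A match describes letters and does not show that the factor was bound.

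The catenins and their partners, which link classical cadherins to actin, were accessible in 11 of 11 cases, against 62.7% of all protein-coding genes. Their median signal was 3.44, against 1.05 for the 27 cadherin and protocadherin genes and 2.33 for all accessible protein-coding promoters. Jup, which encodes plakoglobin, had 8.45 in replicate 1 and 8.85 in replicate 2, and Ctnna3 (alpha-T-catenin) had 8.25 and 5.71. Vcl (vinculin) had 5.46 and 5.50, Ctnnb1 (beta-catenin) 3.98 and 2.90, and Ctnna2, the neuronal alpha-catenin, 3.85 and 4.06. The lowest was Afdn (afadin), with 1.19 and 1.46. Pcdh11x, a delta-1 protocadherin whose symbol ends in a letter and so was not a member, had 0.724 and 0.558.

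The genes were long, with a median length of 123 kb against 17.4 kb for all protein-coding genes, and 54.5% against 11.4% exceeded 100 kb. Distal DHSs inside the gene were found in 28 of the 33 genes, against 37.3% of all genes, but among genes over 100 kb the shares were 18 of 18 and 92.4%. Promoters of these long genes were accessible in 18 of 18 cases, against 86.8% of all genes over 100 kb. Per length the genes held fewer sites. Their 169 gene-body DHSs came to 18.3 per Mb, against 24.1 per Mb over all protein-coding genes, and to 17.5 against 23.8 per Mb over genes longer than 100 kb. In replicate 2 alone the densities were 55.0 and 62.4 per Mb, in replicate 1 alone 22.1 and 27.0.

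**Figure D3:**
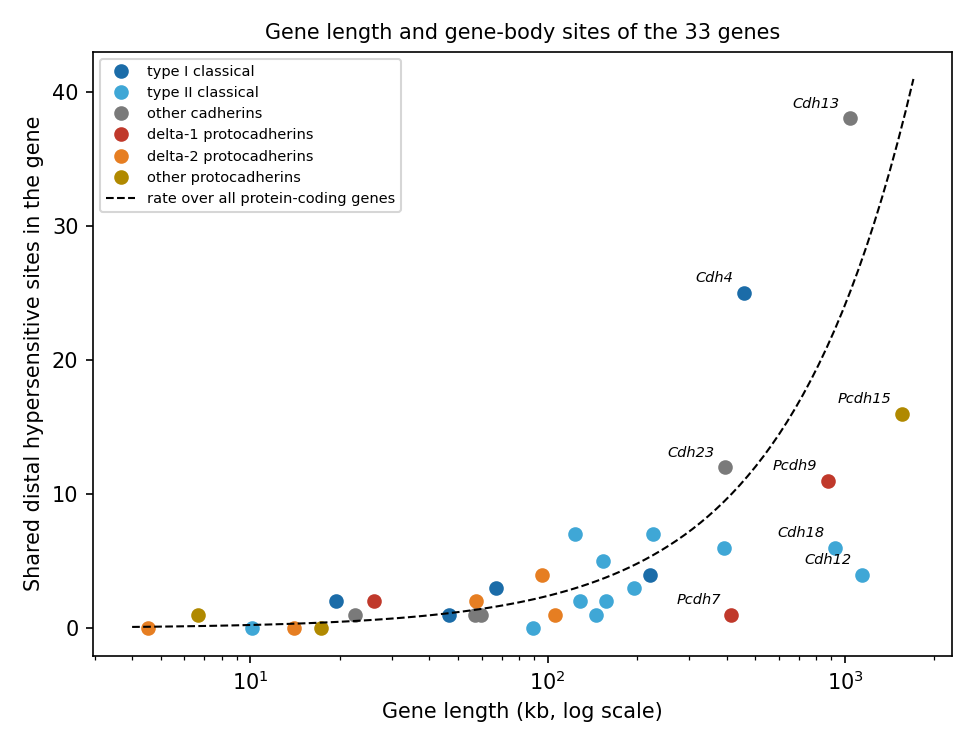
Number of shared distal DHSs inside each of the 33 genes (vertical axis) against gene length in kb (horizontal axis, log scale), with colours for the classes. The dashed line is the rate over all protein-coding genes, 24.1 per Mb; Cdh13 with 38 and Cdh4 with 25 sites lie above it, and Cdh12, Cdh18 and Pcdh7 lie well below it.

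That density differed widely between genes of like length. Cdh13 held 38 sites over 1041 kb, 36.5 per Mb, with mean signals of 0.341 to 1.58 and no stretch over 97.8 kb without a site, and 24 of the 38 held a footprint overlapping in both libraries. Cdh4 held 25 sites over 457 kb, 54.7 per Mb, of which 12 lay in the last 25% of the gene and 4 in the first 25%. By contrast Cdh12, longer than Cdh13, held 4 sites, 3.51 per Mb, and had a stretch of 745 kb with none. Cdh18 held 6 sites, 6.48 per Mb, with a stretch of 447 kb, and Pcdh7 held 1 site in 415 kb. Pcdh15, the longest gene at 1550 kb, held 16 and Cdh23 held 12, while Pcdh9 held 11. Across all 33 genes length and number of sites had a Spearman rho of 0.788, given as a description. By class the density was 43.2 per Mb in type I cadherins, 33.7 in the other cadherins, 25.2 in delta-2 protocadherins, 11.7 in type II cadherins, 10.8 in the other protocadherins and 10.6 in delta-1 protocadherins, and Cdh4 alone supplied 25 of the 35 sites of type I and Cdh13 38 of the 53 of the other cadherins.

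**Figure D4:**
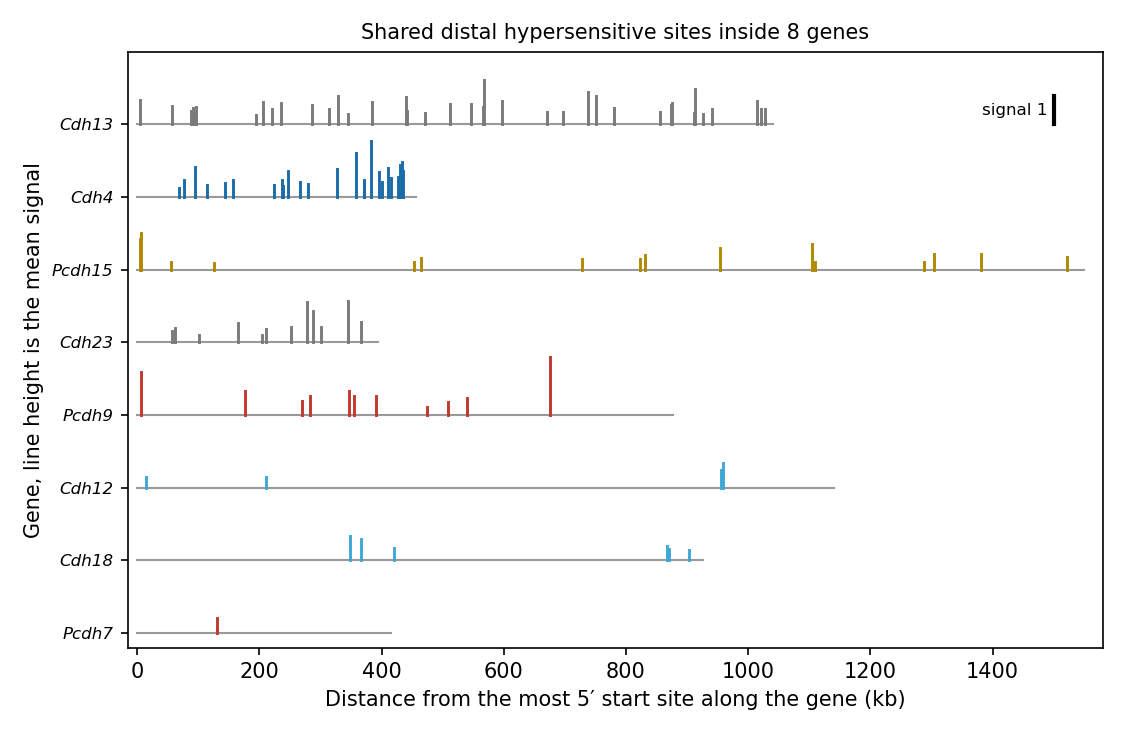
Shared distal DHSs along 8 genes from the most 5′ start (horizontal axis, kb), each a line as high as its mean signal. Sites run along the whole of Cdh13 and crowd towards the end of Cdh4, whereas Cdh12, Cdh18 and Pcdh7 have 4, 6 and 1 over most of their length.

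The highest gene-body site of Cdh4 is shown because this gene held many sites and a weak promoter. It is chr2:179824921-179825220 (plus strand), the central 300 bp of a DHS in an intron, with signals of 1.50 in replicate 1 and 2.52 in replicate 2, above the gene's own promoter at 0.855 and 0.627. It held 6 pairs of overlapping footprints, 1 from each library, and the common bases of 1 pair held GGGCGG at bases 249 to 254. The homeobox core TAATTA lay at bases 80 to 85, outside these footprints.
Cdh4: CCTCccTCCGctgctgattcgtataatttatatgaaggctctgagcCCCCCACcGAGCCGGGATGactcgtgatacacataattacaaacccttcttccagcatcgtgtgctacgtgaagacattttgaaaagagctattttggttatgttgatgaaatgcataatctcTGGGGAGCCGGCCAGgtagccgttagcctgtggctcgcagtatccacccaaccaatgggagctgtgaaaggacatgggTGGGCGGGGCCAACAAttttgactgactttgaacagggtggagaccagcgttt

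Within 50 kb of a start site the genes had a mean of 4.64 distal DHSs, against 3.21 per protein-coding gene, with a median of 3 in both sets. Among genes over 100 kb the means were 5.33 and 5.45 and the medians 3 and 4, so the higher mean was not seen among long genes. Counted from the most 5′ start alone the means were 2.85 and 2.59, and in replicate 2 alone they were 11.5 and 7.29. At least 1 such site was present for 29 of the 33 genes, against 81.2% of all. Cdh4 had 16, Cdh13 15, Cdh23 13, Pcdh15 11 and Cdh26 9. Cdh26 thus had 9 distal sites around it and no promoter DHS, while Cdh6, Cdh18 and Pcdh18, whose promoters were accessible, had 0 within 50 kb, as did Cdh19.

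Of the 236 distal sites in the genes or within 50 kb, 159 lay in introns, 10 in exons and 67 outside the gene. The highest of all, chr14:54603381-54603620, lay 34040 bp from Cdh24 but 2492 bp from a start of 4931414P19Rik, with signals of 4.91 in replicate 1 and 4.80 in replicate 2. The Cdh10 site was next. After it came sites counted for Cdh16 and Cdh15, chr8:104655081-104655260 with 3.95 and 2.72 and chr8:122830501-122830700 with 4.11 and 2.16, nearest to 1700082M22Rik and Gm45743. Apart from the Cdh10 site, these sites thus lay outside the gene they were counted for and closer to another gene's start. The same held for chr10:60262501-60262700 (2.32 and 3.11) and chr10:60285781-60285980 (2.79 and 2.30), counted for Cdh23 and nearest to Psap, and for chr8:104564961-104565180 (2.47 and 2.89), counted for Cdh16 and nearest to Gm45843. The site chr3:45375841-45376060, with 2.71 and 2.08, lay 2447 bp from Pcdh10 and 2254 bp from 2610316D01Rik, and the Cdh26 and Pcdh15 sites shown above completed the 10 highest. The highest gene-body sites with the own gene nearest were the Cdh10 site and, in Cdh16, chr8:104602781-104603000, with 2.23 and 2.05 in an intron near the end of that gene without a promoter DHS. In Cdh1 an intronic site at chr8:106647501-106647700 had 2.09 and 1.02, against 0.231 at the promoter in replicate 1. The highest site in Pcdh9, chr14:93214881-93215100 with 2.64 and 1.54, consists of repeat sequence throughout, and 83.7% of its 31-base words occur elsewhere in the genome, so its reads cannot be told apart from those of other copies; it was the 1 site of 236 with such a share over 50%.

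Gene-body sites of the genes were a little lower than those of all protein-coding genes, with median signals of 0.608 and 0.734. They held 1.83 footprints per site in replicate 1 and 2.89 in replicate 2, against 1.96 and 2.96 over all, and 59.8% against 67.5% held a footprint that overlapped between the libraries. Differences of more than 2-fold between the libraries occurred at 8.88% of these sites, against 5.30% of all gene-body sites. At the promoters, footprints in both libraries were present at 26 of the 33 genes, against 60.8% of all protein-coding genes, Pcdh12 being the 1 accessible promoter without one in replicate 1. Cdh2 and Pcdh7, both with long, low promoter sites, held 19 and 25 footprints and 25 and 17 footprints in replicates 1 and 2.

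Genes of the family at most 10 Mb from the next on a chromosome were grouped into 8 stretches, most of them with other genes in between. These stretches differed in accessibility. The 10.4 Mb of chromosome 15 from Cdh6 to Cdh18, with Cdh9, Cdh10 and Cdh12 between them and only 6 protein-coding genes in all, held 60 shared DHSs of any kind, 5.74 per Mb. The stretch of chromosome 3 with Pcdh10 and Pcdh18 held 5.48 per Mb and that of chromosome 14 with Pcdh8, Pcdh17, Pcdh20 and Pcdh9 held 8.35 per Mb, against 29.7 per Mb over chromosomes 1 to 19 and X. The stretch of chromosome 8 with Cdh13 and Cdh15 held 67.4 per Mb and 60 protein-coding genes, and that of chromosome 2 with Cdh26 and Cdh4 held 40.2 per Mb and 2 protein-coding genes. The stretch with Cdh20, Cdh7 and Cdh19 held 15.5 per Mb and 23 protein-coding genes, and that from Cdh8 to Cdh1 held 28.3 per Mb and 92 such genes. The short one with Pcdh1 and Pcdh12 held 132 per Mb. Of the 4 highest promoters, Pcdh10, Pcdh9 and Pcdh17 thus stood in sparse stretches. Pcdh1, whose highest site lay about as near to another gene's start, stood in the densest of the 8, which spans only 0.0985 Mb. That stretch held 13 shared DHSs, of which 5 were distal. Its distal sites came to 50.8 per Mb, close to the 48.2 per Mb of the stretch with Cdh13 and Cdh15.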

How the data were processed

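Per the labels, the libraries have separate animal numbers under 1 donor record and were mapped to mm10; if they are not separate animals, the SD is technical. The authors deposited peak lists with a signal for each peak, called per library and not pooled, footprints whose p-value column is 0.01 throughout, and segments whose q-value (false discovery rate) is at most 0.05. The notes deposited with the files give no unit for the signal; no source used here names the aligner or the callers. The larger peak list of each library was used. Genes came from GENCODE M21 without the mitochondrial chromosome, and bases from RefSeq GRCm38.p6. A promoter took any start site ± 1 kb and the highest peak overlapping it by at least 1 bp. Hypersensitive sites were shared where peaks of both libraries overlapped and distal where over 1 kb from any start. CpG content was taken within 500 bp of the most 5′ start. Every member is accounted for by name or count. The members and gene lists were chosen with earlier results of these data known. The interval functions were tested on simulated data. The software was samtools 1.23.1 and Python 3.11.15 with pandas 2.3.3, matplotlib 3.10.9, numba 0.67.0, SciPy 1.17.1 and NumPy 2.4.6. Alternatives changed the peak list, windows, start sites, overlap and libraries.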

Additional observations from a re-analysis of the deposited data

How the results depend on the processing

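The number of accessible promoters stayed between 24 and 28 of 33 under the alternatives run. The smaller peak list lost Pcdh12, the most 5′ start alone lost Cdh18 and Pcdh12, equal numbers of the highest peaks (90059 per library) lost Cdh9, Pcdh15 and Pcdh20, and requiring the gene's own start to be nearest, an alternative chosen after seeing the data, lost Cdh10. Leaving out replicate 2 gained Cdh1. The median promoter signal was 0.986 with a 500 bp window, with the most 5′ start alone and with peak midpoints, and 1.11 with a 2 kb window, against 2.34, 2.35, 2.33 and 2.31 over all genes. Distal sites within 50 kb averaged 5.42 to 11.5 with 1 library left out, the higher without replicate 1, and 2.61 with the smaller list, against 1.90 over all genes. Gene-body density was 22.1 to 55.0 per Mb with 1 library left out and 9.20 with the smaller list, against 12.6. Footprints per site were 2.99 with the smaller list, against 2.96, so the members were not lower there. Of 182 values of single promoters under alternatives, 173 moved by less than 1 SD and 9 by more. Pcdh15 is among the 173 only because its SD of 1.48 is as large as its mean; it averaged 0.512 with the 500 bp window and with peak midpoints, and 2.21 with the 2 kb window, against 1.47. Pcdh1 averaged 1.02 with the 500 bp window, and Cdh10 averaged 4.25 and Pcdh7 1.84 with the 2 kb window, which takes in the neighbouring sites described above. Depth is unknown, so no counting interval can be given.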
